A study of Mus musculus with 6 samples.

Results

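The genes described are the 6 class II histone deacetylases, Hdac4, Hdac5, Hdac7 and Hdac9 of class IIa and Hdac6 and Hdac10 of class IIb. They were chosen by the established classification of the family, not by their values, out of 55471 genes in the count table. RNA-seq had been performed on the hippocampus of 6 individual male mice (strain C57BL/6 in the labels, background C57BL/6J in the methods) aged 3 to 6 months, 3 p300-ifKO mice and 3 control littermates, with 1 library per mouse. The p300-ifKOs carried the Ep300 flox allele and Camk2a_creERT2, a Cre recombinase fused to part of the estrogen receptor and expressed in excitatory forebrain neurons, and all mice of both groups received 5 tamoxifen administrations (20 mg/mL in corn oil). The treatment protocol describes the controls as littermates lacking creERT2, whereas the control libraries' own descriptions name Camk2a_creERT2, and no label used here says whether controls carried the flox allele. Recombination was limited to neurons with an active Camk2a driver, so RNA from all other cells of the hippocampus was mixed into every library. In such bulk tissue, fewer cells of a type and less RNA per cell cannot be told apart.

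Histone deacetylases remove the acetyl groups that acetyltransferases such as p300 and CBP place on lysines, so the enzymes of the 2 families act against each other. Class IIa proteins move between nucleus and cytoplasm: bound to MEF2 transcription factors in the nucleus they hold MEF2 target genes down, and once phosphorylated by CaM kinases, protein kinase D or salt-inducible kinases they are bound by 14-3-3 proteins and kept in the cytoplasm. Their own catalytic activity is weak because a tyrosine of the active site is replaced by histidine, and they work through corepressor complexes that hold NCoR and HDAC3. HDAC6 is a cytoplasmic enzyme with a pair of catalytic domains that deacetylates tubulin, and HDAC10 deacetylates polyamines. In hippocampal neurons, nuclear export of class IIa proteins follows synaptic activity.

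The codon that separates the subclasses is given first, because it marks how the 6 genes differ in what they encode. Each line gives 27 coding bases, 5′ to 3′ on the minus strand, from the GENCODE M21 transcripts on GRCm38, with the codon of the active-site residue in capitals and its position before the sequence.
Hdac4, chr1:91945960-91945962: cttgagggaggcCATgacctgacagcc
Hdac5, chr11:102196599-102196601: ctggagggaggcCATgacttgaccgcc
Hdac7, chr15:97796158-97796160: ttagagggtggaCATgacctcacggcc
Hdac9, chr12:34107278-34107280: ctggaaggaggaCATgatctgacagct
Hdac6, first domain, chrX:7938484-7938486: ctggagggtggcTATaacctccgtgcc
Hdac6, second domain, chrX:7932229-7932231: ctagagggtggaTACaatttggcatct
Hdac10, chr15:89126073-89126075: ttggagggtggcTACcacttggagtcc
The 4 class IIa genes carry CAT, a histidine codon, and the class IIb genes carry TAT or TAC, tyrosine codons. Not every annotated coding transcript holds the window: it is in 2 of 4 for Hdac4, 4 of 7 for Hdac5, 8 of 10 for Hdac7, 4 of 8 for Hdac9 and 3 of 5 for Hdac6. For Hdac10 the printed window is in 1 of 2, and the other coding transcript has the same codon behind another exon junction. The deposited values are 1 count per gene, so transcripts with and without the catalytic part were summed.

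Total counts lay between 23151568 and 28433823 per library, and the smallest raw count of any class II gene in any library was 539. The targeted gene checked the labels: normalized counts (counts divided by the size factor of the library) of Ep300 were 1545, 1474 and 2334 in the controls and 478, 1350 and 912 in the p300-ifKOs, which DESeq2 estimated at -0.97 on the log2 scale (SE 0.33, adjusted p = 0.991). Each p300-ifKO library was below each control, and p300-ifKO replicate 2 was the closest to them. Ep300 passed the threshold in DESeq2 without that library (-1.36, adjusted p = 0.000375), in a fit that called 7.90% of the genes given an adjusted p. It also passed with 1 surrogate variable (-0.48, adjusted p = 0.00127) and with a replicate block and offsets together (-0.85, adjusted p = 0.0173). The surrogate variable was 0.082, 0.048 and 0.50 in the controls and -0.79, 0.31 and -0.14 in the p300-ifKOs. Its lowest library was p300-ifKO replicate 1 and its highest Control replicate 3, as for Ep300. It was thus not separate from group, and the parts of the 2 cannot be fully told apart. Ep300 did not pass in edgeR (adjusted p = 0.745), in limma-voom (adjusted p = 0.748) or in DESeq2 with any other single library left out (adjusted p of 0.991 or more). The block alone (adjusted p = 0.134) and offsets alone (adjusted p = 0.89) did not bring it past the threshold in DESeq2 either. Crebbp, which encodes the paralog CBP, had a log2 estimate of -0.055 (SE 0.11). Esr1, whose ligand-binding domain is part of creERT2, rose from 102 ± 12.5 to 3167 ± 937 (SD, n = 3, DESeq2 log2 fold change 4.96, adjusted p = 4.47e-92). Arsi, which the study places in the construct of the driver, rose from 30.6 ± 7.46 to 181 ± 20.1 (log2 fold change 2.56, adjusted p = 2.98e-17 in DESeq2). These were the only 2 genes past the threshold in DESeq2. Both were low in each control library, which goes with the protocol's controls lacking creERT2 and not with the control descriptions. Fold changes over 17054 genes ran with exonic length (Spearman rho -0.44) and with GC content (0.32), a trend across genes and not across mice, and within libraries the rho of the deviation with length was between 0.16 and 0.41 in the controls but -0.51, 0.42 and -0.28 in p300-ifKO replicates 1, 2 and 3.

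None of the 6 class II genes passed the threshold (adjusted p under 0.05, two-sided Wald test in DESeq2 over 32773 genes), where 0.00610% of all genes passed. The edgeR quasi-likelihood test, which called 0.0117% of its genes, and limma-voom also called 0 of 6. At an unadjusted p under 0.05 the count was 1 of 6 in DESeq2 (Hdac9, lower), against 1.32% of all genes and 0.546% in that direction, 0 of 6 in edgeR, against 2.30%, and 1 of 6 in limma-voom (Hdac9), against 2.15%. Estimates were negative for Hdac4, Hdac5 and Hdac9 and positive for the other 3, and their median log2 fold change was -0.00225, beside -0.046 over all genes tested, of which 54.7% had a negative estimate. The adjusted p was 0.991 for each of the 6.

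**Figure D1:**
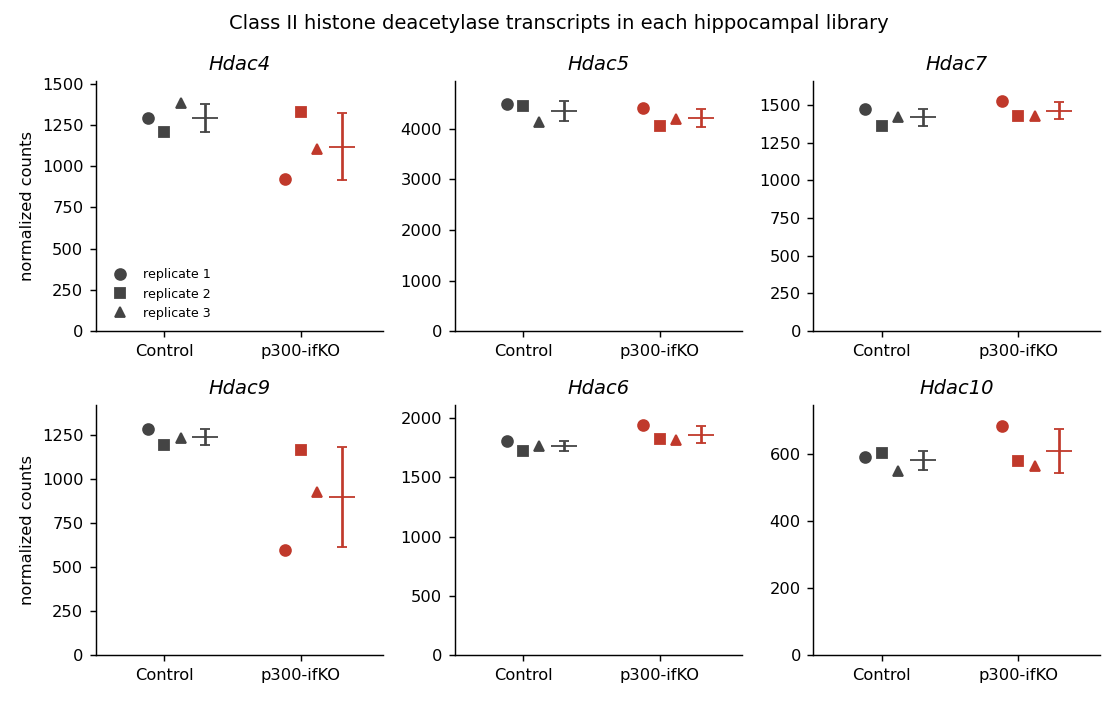
Normalized counts (vertical axes, from 0) of the 6 class II genes in 3 control and 3 p300-ifKO libraries; marker shape gives the replicate number, and the bar beside the points is the mean ± SD. Hdac9 was spread from 598 to 1166 in the p300-ifKOs against 1192 to 1283 in the controls, whereas Hdac5, Hdac6 and Hdac7 differed little within or between groups.

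Hdac9 (ENSMUSG00000004698, chr12:34047580-34917095, minus strand) encodes a class IIa enzyme that, like its relatives, binds MEF2 factors, and had the lowest estimate of the 6. Its normalized counts were 1283, 1192 and 1235 in the controls and 598, 1166 and 927 in the p300-ifKOs. Each p300-ifKO library was below each control, as was so for 3.42% of all genes tested (3.37% of those with a mean of 10 or more), but replicate 2 was just under the lowest control and replicate 1 far below. The means were 1237 ± 45.1 and 897 ± 285 (SD, n = 3), a log2 fold change of -0.46 (SE 0.23, 95% interval -0.92 to -0.0075) in DESeq2. Its p was 0.0464 before adjustment and 0.991 after it. On a linear scale the ratio was 0.726, with an interval of 0.530 to 0.995. The exact permutation test over the 6 libraries, two-sided, gave p = 0.1, the smallest this design allows.

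The size of the Hdac9 difference turned on single libraries. Without p300-ifKO replicate 2 its log2 value reached -0.69 (SE 0.19) and passed the threshold (adjusted p = 0.0216 in DESeq2), in a fit that called 2.89% of all its genes and 1.39% as lower. Of the 11726 genes to which that fit gave an adjusted p, it called 7.90%, and 3.79% as lower. Among the cell type markers it also called C1qa (0.70, adjusted p = 0.0111), Cldn5 (0.51, adjusted p = 0.0366) and Neurod2 (0.42, adjusted p = 0.0276), all higher in the p300-ifKOs. Without p300-ifKO replicate 1 it was -0.24 (SE 0.13, unadjusted p = 0.0686). Leaving out a control gave values from -0.43 to -0.49, none past the threshold after adjustment.

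Other features of the libraries were set beside Hdac9. Among the p300-ifKOs, the order of Hdac9, replicate 1 lowest and replicate 2 highest, was the order of Ep300 and of the rho with exonic length given above. Among the controls it was not: Hdac9 was highest in replicate 1, and Ep300 and the rho in replicate 3. The part of Ep300 level and of the length trend in the spread among these 6 mice was not tested. Hdac9 is 1 of the 2 class II genes with long exonic sequence, 14838 bases, and has the lowest GC content of the 6, 42.1%. Length and GC offsets brought its log2 value to -0.27 (SE 0.14, unadjusted p = 0.0435, adjusted p = 0.948 in DESeq2), and with 1 surrogate variable -0.21 (SE 0.12, unadjusted p = 0.0802). The surrogate variable was not separate from group, as given above. With the replicate block the Hdac9 value was -0.51 (SE 0.21, unadjusted p = 0.0166 in DESeq2). In edgeR without a filter it was -0.45 (unadjusted p = 0.0225), and neither setting passed the threshold after adjustment. The sign was negative in each of the 17 alternative settings run.

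Marker lists of other cell types were read beside it. Microglia markers summed to 6286 to 6797 normalized counts in the controls and 6962 to 7896 in the p300-ifKOs, with 4 of 6 higher. Astrocyte markers summed to 106200 to 109800 and 93270 to 105000, with 4 of 6 lower, so for both lists the sums did not overlap between groups. Of single genes tested, 3.42% did not overlap as lower and 3.21% as higher, and no such share was taken for sums. The largest part of the astrocyte sum was Slc1a2, which overlapped (67575 to 71532 in the controls, 57802 to 68192 in the p300-ifKOs). Among single markers, 1 of 6 for microglia and 1 of 6 for astrocytes did not overlap. Summed excitatory neuron markers overlapped (62430 to 73850 and 68780 to 82000), with 3 of 6 higher, and so did those of the interneuron, oligodendrocyte, endothelium, choroid plexus and blood lists, and no marker of the 8 lists was at 0 in any library. With all 6 libraries, none of these markers passed the threshold in DESeq2, edgeR or limma-voom, and 3 of them had an unadjusted p under 0.05 in DESeq2, Neurod2 (log2 fold change 0.33), C1qa (0.50) and Slc1a3 (-0.25). The lowest and highest log2 fold changes were -0.24 (Prox1) and 0.33 (Neurod2) for excitatory neurons, -0.25 (Gad2) and 0.41 (Pvalb) for interneurons, -0.25 (Slc1a3) and 0.17 (Gfap) for astrocytes, and -0.090 (Cx3cr1) and 0.56 (Aif1) for microglia. They were -0.15 (Mobp) and 0.27 (Mog) for oligodendrocytes, -0.19 (Tek) and 0.35 (Cldn5) for endothelium, -0.13 (Aqp1) and 0.80 (Ttr) for choroid plexus, and -0.34 (Hbb-bt) and -0.15 (Hba-a1) for blood. The part of cell composition in the Hdac9 difference was not tested.

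Hdac4 (ENSMUSG00000026313, chr1:91928779-92195699, minus strand), a class IIa gene known for its part in synaptic plasticity and memory, had the next lowest estimate. Its normalized counts were 1290, 1210 and 1381 in the controls and 924, 1328 and 1105 in the p300-ifKOs. Replicates 1 and 3 of the p300-ifKOs were below all controls, and replicate 2 lay inside their range. The DESeq2 log2 estimate was -0.21 (SE 0.17, 95% interval -0.54 to 0.12), with unadjusted p = 0.217 and an adjusted p of 0.991, and the exact permutation p was 0.3. Leaving out p300-ifKO replicate 2 gave -0.35, with a DESeq2 adjusted p of 0.102, and leaving out replicate 1 gave -0.089. The estimate was -0.046 with length and GC offsets and -0.035 with 1 surrogate variable. With 15813 bases Hdac4 has the longest exonic sequence of the 6. Of it, 3536 bases (22.4%) overlap exons of the antisense lincRNA Gm26720, which is not among the genes counted. Of its stretches of 50 bases, the read length, 21.6% also occur, on either strand, in exons of other genes. That share takes in the antisense overlap, so the 2 figures are not separate. Part of the Hdac4 count is uncertain.

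Hdac5 (ENSMUSG00000008855, chr11:102194432-102230166, minus strand), the class IIa gene with the highest level here, was nearly the same in both groups. The controls had 4481, 4457 and 4127 normalized counts and the p300-ifKOs 4402, 4047 and 4198. The ranges overlapped, with the lowest and the highest library of the 6 differing by 1.11 times. Its log2 fold change was -0.047 (SE 0.11), and the 95% interval of the ratio, 0.838 to 1.12, left larger differences in either direction outside. The unadjusted p was 0.658 in DESeq2 and the exact permutation p 0.4.

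Hdac7 (ENSMUSG00000022475, chr15:97792664-97844502, minus strand) is the class IIa member best known from blood vessels and lymphocytes. It had 1474, 1363 and 1416 normalized counts in the controls and 1526, 1428 and 1426 in the p300-ifKOs. Only replicate 1 of the p300-ifKOs lay above the highest control. The log2 fold change was 0.042 (SE 0.11, 95% interval -0.17 to 0.26, unadjusted p = 0.702 in DESeq2), and the exact permutation p was 0.4.

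Hdac6 (ENSMUSG00000031161, chrX:7930120-7947889, minus strand), the tubulin deacetylase of class IIb, was slightly higher in each p300-ifKO library. Its normalized counts were 1804, 1724 and 1763 in the controls and 1946, 1826 and 1813 in the p300-ifKOs. The 2 ranges were next to each other without overlap, as was so in this direction for 3.21% of all genes tested. The means were 1764 ± 39.8 and 1862 ± 73.5 (SD, n = 3), a ratio of 1.06 with a 95% interval of 0.914 to 1.22 and a DESeq2 log2 estimate of 0.078 (SE 0.11, unadjusted p = 0.462, adjusted p = 0.991). The exact permutation p was 0.1, again the smallest possible. Over the 17 alternatives the estimate stayed between 0.044 and 0.11.

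Hdac10 (ENSMUSG00000062906, chr15:89123307-89128700, minus strand), the polyamine deacetylase, had the fewest counts of the 6 and the shortest exonic sequence, 3379 bases. The controls had 593, 604 and 550 normalized counts and the p300-ifKOs 685, 581 and 564. Replicate 1 of the p300-ifKOs was above all controls, while the other two were inside their range. The log2 fold change was 0.066 (SE 0.14, 95% interval -0.22 to 0.35, unadjusted p = 0.646 in DESeq2; exact permutation p = 0.7), and it was -0.026 without that library.

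**Figure D2:**
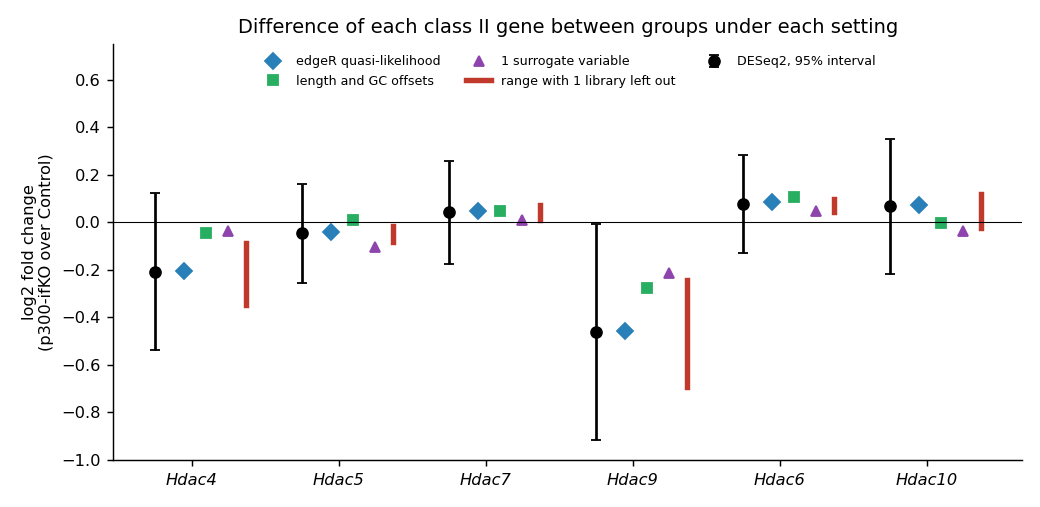
Log2 fold change (vertical axis, p300-ifKO over Control) of each class II gene: DESeq2 with its 95% interval, edgeR, DESeq2 with length and GC offsets, DESeq2 with 1 surrogate variable, and the range of DESeq2 values with 1 library left out. Hdac9 was below 0 in all settings, from -0.69 to -0.21, and Hdac4 moved from -0.21 to -0.035 with 1 surrogate variable.

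The spread between mice separated the 6 genes more clearly than the group means did. The coefficient of variation of Hdac9 was 3.65% among the controls and 31.8% among the p300-ifKOs, and that of Hdac4 was 6.59% and 18.1%. For Hdac5, Hdac6 and Hdac7 it lay between 2.26% and 4.55% in both groups, and Hdac10 had 4.89% and 10.8%. The highest library exceeded the lowest by 2.14 times for Hdac9, 1.49 times for Hdac4 and 1.25 times for Hdac10, but by 1.11 to 1.13 times for the other 3. Most of this lay in p300-ifKO replicate 1, which was the lowest of the 6 libraries for Hdac4 and Hdac9 and the highest for Hdac6, Hdac7 and Hdac10. On the scale of log2(normalized count + 1), it deviated from the gene mean by -0.79 for Hdac9, -0.37 for Hdac4 and 0.20 for Hdac10. The difference in spread between groups was not tested, since each group held 3 mice.

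**Figure D3:**
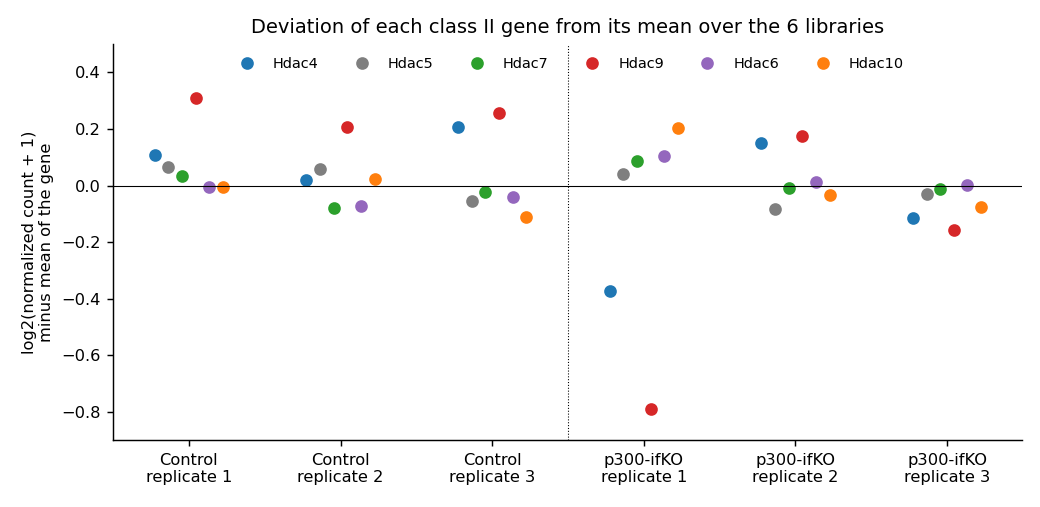
Deviation of log2(normalized count + 1) from the mean of the gene (vertical axis) for each of the 6 class II genes in the 6 libraries (horizontal axis). In p300-ifKO replicate 1 the points spread from -0.79 (Hdac9) to 0.20 (Hdac10).

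The genes whose pattern over the 6 libraries was most like each member were found by the root mean square difference of centered log2(normalized count + 1), among genes with a mean of at least 100 and at least 0.5 of the SD of the member. For Hdac9 the nearest was Ccnd1 (0.030), which encodes cyclin D1, and for Hdac4 the nearest were Trim44 (0.021) and Nf1 (0.022), which encodes neurofibromin. Phyhipl (0.019) and Fam185a (0.024) were most like Hdac5, Slc20a2 (0.017) and Golga5 (0.018) most like Hdac7, Clasrp (0.017) and Usp3 (0.018) most like Hdac6, and Kcnab2 (0.016) and Cyth4 (0.020) most like Hdac10. No member was among the nearest genes of another. Between members, Hdac6 and Hdac7 were the closest pair (0.022), although they belong to different subclasses, and Hdac9 and Hdac10 the farthest apart (0.466). Hdac4 was nearer to Hdac9 (0.206) than to any other member. These are descriptions over 6 libraries that differed in total counts and in their trend with exonic length. The part of that trend in the likeness between genes was not tested.

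Levels were compared between genes as normalized counts per kilobase of exonic length. In the controls Hdac5 was the highest class II gene with 496 ± 22.5 (SD, n = 3), followed by Hdac6 with 303 ± 6.84, Hdac7 with 210 ± 8.21, Hdac10 with 172 ± 8.43, Hdac9 with 83.3 ± 3.04 and Hdac4 with 81.8 ± 5.39. The ranges of neighbors in this order were apart, except for Hdac9 and Hdac4, whose levels did not differ beyond their spread. In the p300-ifKOs the levels in the same order were 480 ± 20.3, 320 ± 12.6, 216 ± 8.46, 181 ± 19.4, 60.5 ± 19.2 and 70.8 ± 12.8, so Hdac4 stood above Hdac9 on average, and only this pair overlapped again. Even the lowest, Hdac4, was above 71.3% of all genes tested in the controls, and Hdac5 above 92.6%.

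Summed over the class, Hdac5 made up 36.8% of the level per kilobase in the controls and 36.2% in the p300-ifKOs, and Hdac6 22.5% and 24.1%. The share of Hdac9 was 6.19% ± 0.18 in the controls and 4.57% ± 1.51 in the p300-ifKOs (SD, n = 3). In p300-ifKO replicate 1 it was 2.96%, against 5.95% in replicate 2. These shares depend on the length taken: with the longest annotated transcript in place of all exons, the control level of Hdac4 was 160 and that of Hdac9 156, against 201 for Hdac10 and 806 for Hdac5.

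Among the other histone deacetylases, Hdac11 of class IV (959 ± 59.9), Hdac3 (730 ± 48.7) and Hdac2 (530 ± 28.3) stood above Hdac5 in the controls, with the ranges of Hdac2 and Hdac5 overlapping. Hdac1 (94.3 ± 7.73) and Hdac8 (75.03 ± 10.3) were near the level of Hdac9 and Hdac4. Hdac1 shares 35.5% of its stretches of 50 bases with other genes, so its level is uncertain. All 5 genes of class I and IV had positive estimates, with a median log2 fold change of 0.11. Values ran from 0.083 (Hdac2) to 0.21 (Hdac3, the catalytic partner of class IIa proteins, unadjusted p = 0.143), none past the threshold in DESeq2 (adjusted p 0.991 for each). The median was 0.19 with length and GC offsets and 0.063 with 1 surrogate variable.

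**Figure D4:**
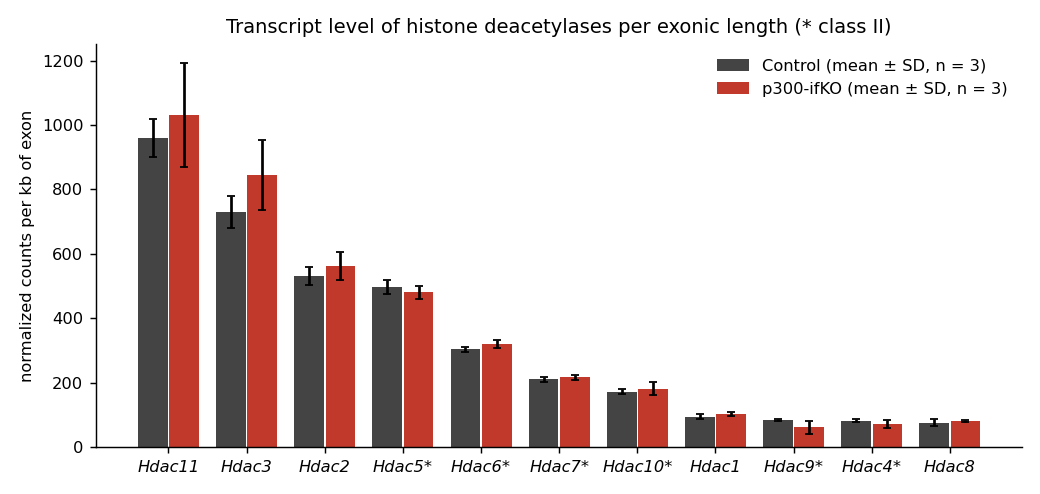
Normalized counts per kilobase of exon (vertical axis, from 0) of 11 histone deacetylase genes, ordered by the control mean; bars are means of 3 mice and error bars the SD. Among class II genes (asterisk), Hdac5 was highest at 496 in the controls, and Hdac9 and Hdac4 lowest at 83.3 and 81.8.

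Genes that work with the class II enzymes were then read as lists, chosen for known function with earlier results of these data known. Of the 61 genes in the 7 lists around the class II enzymes, DESeq2, edgeR and limma-voom called 0 at an adjusted p under 0.05. Over all genes tested, DESeq2 called 0.00610%, edgeR 0.0117% and limma-voom 2 of 17131, so a count of 0 sets these lists apart from no others. The median log2 fold change of all tested genes with a mean of 10 or more was -0.0051.

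The corepressor list holds the complex through which class IIa proteins act: 4 of 6 had negative estimates, with a median log2 fold change of -0.13 that became 0.021 with length and GC offsets, 0.015 with 1 surrogate variable and -0.022 without p300-ifKO replicate 1. Without p300-ifKO replicate 2 the median was -0.22. Ncor1 (-0.26, SE 0.22), which encodes the NCoR scaffold, was lowest, and Gps2 (0.29, SE 0.20), a small subunit of the same complex, was highest. Ncor1 had 4709, 4888 and 6232 normalized counts in the controls and 3255, 5610 and 4319 in the p300-ifKOs, so the groups overlapped, with replicate 1 of the p300-ifKOs again lowest.

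MEF2 factors are the main DNA-binding partners of class IIa. Estimates of Mef2a (-0.11), Mef2c (-0.21) and Mef2d (-0.26) were negative, and Mef2b, with a mean of 4.75 normalized counts in the controls, was close to undetected. Mef2c had 3438, 3070 and 3350 normalized counts in the controls and 2497, 3068 and 2948 in the p300-ifKOs. Each p300-ifKO library was below each control, replicate 2 by almost nothing, as was so in this direction for 3.42% of all genes tested. The unadjusted p of Mef2c was 0.111 in DESeq2. Mef2d passed the threshold when p300-ifKO replicate 2 was left out (-0.40, adjusted p = 0.0387 in DESeq2). Of the genes given an adjusted p, that fit called 7.90%, and 3.79% as lower. The median of the list was -0.16, and 0.093 with length and GC offsets. The fit with offsets left out Mef2b, whose mean was under 10, so these medians are not over the same genes. For the other 3, whose middle estimate without offsets was the -0.21 of Mef2c, the direction turned with the scaling. The list median was -0.039 without p300-ifKO replicate 1 and -0.26 without replicate 2.

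In the list of MEF2-dependent neuronal genes, 6 of 7 estimates were negative, with a median log2 fold change of -0.15 that became 0.097 with 1 surrogate variable, -0.051 without p300-ifKO replicate 1 and -0.29 without replicate 2. With length and GC offsets the median was -0.14. Kcna1, a potassium channel gene, was lowest (-0.62, SE 0.88), with 139 to 1167 normalized counts among the p300-ifKOs and 608 to 1372 among the controls. Arc, an activity-regulated synaptic gene, was highest (0.15, SE 0.25), and Bdnf, the neurotrophin gene, had the smallest unadjusted p (0.0956, log2 fold change -0.25).

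The kinases that phosphorylate class IIa proteins had negative estimates for 12 of 16 genes, with a median log2 fold change of -0.094 that became -0.0048 with length and GC offsets and -0.017 with 1 surrogate variable. Without p300-ifKO replicate 2 the median was -0.11. Camk4, a CaM kinase of neuronal nuclei, had the smallest unadjusted p. Its normalized counts were 354, 367 and 469 in the controls and 280, 344 and 307 in the p300-ifKOs. Each p300-ifKO library was below each control, as was so for 1 of 16 genes of the list and 3.42% of all genes tested. The DESeq2 estimate of Camk4 was -0.35 on the log2 scale (SE 0.18, unadjusted p = 0.0529, adjusted p = 0.991). Camk2d gave -0.39 (SE 0.20, unadjusted p = 0.0542), with overlapping groups. Sik2, a salt-inducible kinase, was lowest (-0.71, SE 0.79) but varied from 53 to 359 normalized counts within the p300-ifKOs, and Camk1 was highest (0.23, SE 0.17). The 14-3-3 genes, whose products hold phosphorylated class IIa proteins in the cytoplasm, had 5 of 7 positive estimates, from -0.13 (Ywhab) to 0.27 (Ywhaz, unadjusted p = 0.188). Their median was 0.11, but -0.038 with 1 surrogate variable, 0.018 when Control replicate 3 was left out and 0.011 when p300-ifKO replicate 1 was. Length and GC offsets gave 0.067, leaving out Control replicate 2 gave 0.21 and leaving out p300-ifKO replicate 2 gave 0.15.

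Of the genes for HDAC6 substrates and partners, 7 of 10 had positive estimates, with a median log2 fold change of 0.094 that became -0.0074 with 1 surrogate variable and 0.012 without p300-ifKO replicate 1. Length and GC offsets gave 0.049, and leaving out p300-ifKO replicate 2 gave 0.15. Atat1, which encodes the acetyltransferase that acts on the tubulin lysine HDAC6 deacetylates, had an estimate of 0.047 (SE 0.13), and Sirt2, a second tubulin deacetylase, 0.16 (SE 0.15). Tuba1b was highest (0.34, unadjusted p = 0.153), though 75.1% of its stretches of 50 bases occur in other genes, and Tppp, a tubulin-binding protein, was lowest (-0.15).

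For polyamine metabolism, the pathway of HDAC10 substrates, 8 of 11 estimates were positive, with a median log2 fold change of 0.12 that became -0.0125 with 1 surrogate variable and 0.042 without p300-ifKO replicate 1. Length and GC offsets gave 0.11, and leaving out p300-ifKO replicate 2 gave 0.14. Azin2, an antizyme inhibitor, was highest and had 627, 642 and 576 normalized counts in the controls and 870, 657 and 747 in the p300-ifKOs. Each p300-ifKO library was above each control, as was so for 2 of 11 genes of the list and 3.21% of all genes tested. The DESeq2 log2 estimate of Azin2 was 0.30 (SE 0.16, unadjusted p = 0.0552, adjusted p = 0.991). Its relative Azin1 was lowest (-0.098, SE 0.17).

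**Figure D5:**
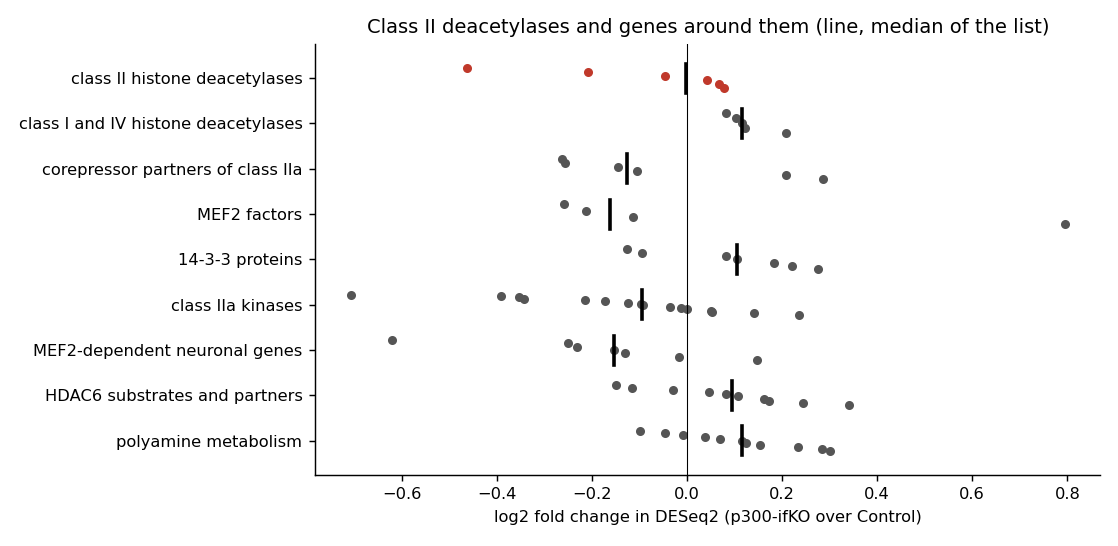
Log2 fold changes (horizontal axis, p300-ifKO over Control, DESeq2) of the class II genes and of 8 lists of related genes (vertical axis); each point is 1 gene and the vertical line the median of the list. Medians ran from -0.16 (MEF2 factors, 0.093 with length and GC offsets, without Mef2b) to 0.12 (polyamine metabolism, -0.0125 with 1 surrogate variable), with the class II genes at -0.00225. The point at 0.79 is Mef2b.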

How the data were processed

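RNA-seq libraries of 6 hippocampi were analyzed. The values deposited by the authors were unnormalized gene counts from 50 bp single-end reads. Adapters were trimmed with Trim Galore, reads were aligned with STAR (version 2.6.1) to GRCm38, those with a mapping quality above 10 were kept, and reads on exons of Ensembl release 99 genes were counted with Rsubread. The strand setting is not given in the sources used here, so overlapping antisense genes cannot be told apart, and the quality limit lowers counts of genes with near-identical copies. Groups came from sample titles. Number of unused per-sample columns: 0.

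Counts were tested with DESeq2 (version 1.42.0, R 4.3.3; two-sided Wald test, median-of-ratios size factors, default filters, Benjamini-Hochberg over 32773 genes), the tool named by the study in another version, beside edgeR (4.0.16) and limma-voom (limma 3.58.1). Offsets came from mgcv (1.9.3) over genes with a mean above 10, and the surrogate variable from sva (3.50.0). That variable was partly aligned with group, so estimates with it may lose part of a group difference. Intervals are 95% intervals of the fit. Exonic lengths came from the deposited table, and symbols, transcript lengths, GC content and sequence from GENCODE M21 on the same build (99.57% of 55471 identifiers matched).

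Members and lists were chosen with earlier results of these data known. Named genes were the 6 members, the checks Ep300, Crebbp, Esr1 and Arsi, and the lowest and highest gene of each list (mean of 10 or more). Also named were, for pathway lists, the one with the smallest p, genes tied to a member, marker genes with an unadjusted p under 0.05, and the 2 genes most like each member. A few genes that this rule names are not reported here. Alternatives were other tools, TMM factors, low-count filters, filtering off, a replicate block, a threshold of 0.1, offsets, 1 surrogate variable, another length and leaving out each library.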

Additional observations from a re-analysis of the deposited data

How the results depend on the processing

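Over 17 alternatives, Hdac4, Hdac6, Hdac7 and Hdac9 kept the sign of their log2 fold change. That of Hdac5 turned to 0.011 with length and GC offsets and 0.0091 with offsets and the block together. That of Hdac10 turned to -0.0047 with offsets, -0.0056 with offsets and the block, -0.036 with 1 surrogate variable and -0.026 without p300-ifKO replicate 1. The number of class II genes called ranged from 0 to 1 when a library was left out, the 1 being Hdac9 without p300-ifKO replicate 2. In that fit 1 MEF2 factor (Mef2d) and 1 MEF2-dependent gene were also called, so both counts ranged from 0 to 1. Of all genes given an adjusted p, the same fit called 7.90%, and 3.79% as lower. With each library left out in turn, log2 fold changes of Hdac9 ran from -0.69 to -0.24 and those of Hdac10 from -0.026 to 0.12. The median of the 6 class II genes lay between -0.053 and 0.024 and changed sign. With length and GC offsets the median of the MEF2 factors, there without Mef2b, moved to 0.093, and with 1 surrogate variable that of the MEF2-dependent genes to 0.097. Medians also changed sign for corepressors (0.021 with offsets, 0.015 with the surrogate variable) and, with the surrogate variable, for 14-3-3 proteins (-0.038), HDAC6 partners (-0.0074) and polyamine metabolism (-0.0125). The cause was not tested. With the longest transcript as length, control levels were 159.7 (Hdac4), 805.6 (Hdac5), 273.7 (Hdac7), 155.7 (Hdac9), 350.1 (Hdac6) and 201.1 (Hdac10).

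Without p300-ifKO replicate 2, DESeq2 called 926 genes, against 2 with all libraries. No label used here says whether the replicate numbers pair the mice. The library names number both groups alike, with the same gap in the numbering, which may or may not mark pairs. Correlations of same-numbered deviations over 13614 genes were 0.37, -0.37 and 0.16. They cannot decide it, since trends of whole libraries, such as that with length, enter them. With the replicate block, log2 fold changes were -0.22 (Hdac4), -0.047 (Hdac5), 0.043 (Hdac7), -0.51 (Hdac9), 0.077 (Hdac6) and 0.063 (Hdac10), 0 members were called, and the count over all genes went from 2 to 4. With 3 mice a group, intervals of the ratio ran from 0.838 to 1.12 at the narrowest (Hdac5) and from 0.530 to 0.995 for Hdac9.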
